A study of Homo sapiens with 6 samples.

Results

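The Wnt pathway was followed layer by layer, from secreted ligands to feedback genes, in cells labelled HT29 with and without a stable knockdown of HMGA1. The 46 genes were chosen by name, as ligands, ligand secretion factors, receptors, Dishevelled proteins, destruction complex genes with beta-catenin, nuclear factors, and feedback or target genes. The choice was made with earlier results of these data known. All 46 were found among the 31164 genes of the deposited table, and 39 of them passed the level needed for a test. HT29 is an established human colorectal cancer cell line. The 3 shHMGA1 libraries came from cells with HMGA1 knockdown (HMGA1 encodes an architectural chromatin protein that prefers AT-rich DNA), and the 3 shNC libraries from cells whose genotype is labelled WT. No treatment was given to either group. All cells grew in DMEM with fetal bovine serum and antibiotics, and the values are FPKM (fragment counts corrected for transcript length and for the size of the library). The labels do not say how many hairpins were used, whether the lines are clones, or whether the replicates are separate cultures, so p-values measure only the spread between these libraries.

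Wnt ligands are secreted lipid-modified proteins that bind Frizzled receptors together with the co-receptors LRP5 and LRP6. Binding holds back a destruction complex built on APC and Axin, which otherwise marks beta-catenin for degradation, and the beta-catenin that is spared enters the nucleus and drives genes bound by TCF/LEF factors. Several of those genes, among them AXIN2, RNF43, ZNRF3, NKD1 and NOTUM, dampen the pathway in turn. In the intestine this signal maintains crypt stem cells, and most colorectal cancers activate it, often by truncation of APC, which HT29 is also known to carry. The labels give no APC genotype and the identity of the line was not checked, so whether these cells carry that mutation is not known here.

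HMGA1 was lower in every knockdown library, at 465, 565 and 508 FPKM in shHMGA1 against 785, 810 and 854 in shNC, or 62.8% of the control mean (log2 difference -0.67, limma adjusted p = 0.0018). Library totals ran from 807156 to 838067 FPKM and correlations of log2(FPKM + 1) from 0.973 to 0.988. Read counts were not used here, and FPKM keep no depth. The 3 knockdown libraries had more genes at 0 (6807 to 7116) than the 3 controls (5747 to 6542), and mitochondrially encoded genes took 8.50% to 12.5% of FPKM in the knockdown and 11.4% to 13.5% in the controls; their part in the results was not tested beyond the fit without those genes. On the second principal component (18.3% of the variance) shHMGA1 replicate 1 stood apart from shHMGA1 replicate 2, and without replicate 1 the members that fell were 13 and those that rose 2. Of 9 colon epithelial markers, 6 averaged at least 1 FPKM, and the 9 together summed to 2326 to 2490 FPKM in shHMGA1 against 2532 to 2779 in shNC, without overlap. EPCAM rose (252 ± 19.2 FPKM in shHMGA1 and 197 ± 2.54 in shNC, SD, n = 3 each, limma adjusted p = 0.0072). KRT18 fell (766 ± 36.9 FPKM in shHMGA1 and 912 ± 53.6 in shNC, adjusted p = 0.0214), and KRT8 and CDH1 were lower in every knockdown library without being called. The part of these shifts in the results was not tested. VIL1, CDH17 and CEACAM5, usually detected in HT29, were at or near 0 in both groups, at no more than 0.04 FPKM in any shHMGA1 library and 0.22 in any shNC library. Of 3 leukocyte markers, CD68 was detected at 1.53 to 2.03 FPKM in shHMGA1 and 1.33 to 1.64 in shNC (not called), CD3E did not exceed 0.03 FPKM, and PTPRC was listed at 0 in 5 of the 6 libraries. The endothelial markers VWF and CDH5 together summed to at most 0.14 FPKM in shHMGA1 and 0.20 in shNC. Of 3 fibroblast markers in the table, the collagen COL1A1 was at 6.67 to 11.13 FPKM in shHMGA1 and 10.58 to 11.35 in shNC, and DCN at 0 in 5 of 6 libraries. The third, the collagen COL3A1, was too low to test but higher in every knockdown library (0.95, 0.81 and 0.91 FPKM in shHMGA1 against 0.18, 0.18 and 0.17 in shNC).

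Calls were spread unevenly over the pathway, and no test compared the layers. Because the members were chosen with earlier results of these data known, their shares of calls are a description only. Of the 39 members tested, 12 fell, 2 rose and 25 were not called (limma on log2(FPKM + 1), adjusted p under 0.05 over all 14304 genes tested). Among the tested members 30.8% fell and 5.13% rose, where over all tested genes 12.3% fell, 16.1% rose and 28.4% were called in either direction. The median log2 difference was -0.11 over the tested members and 0.02 over all tested genes. By layer, 5 of 8 tested feedback and target genes, 3 of 5 ligands and 2 of 9 receptors fell, and none of these rose. In the layer of the destruction complex and beta-catenin 2 of 5 fell, APC and CTNNB1, and none rose. Of 7 tested nuclear factors 2 rose and none fell, and no ligand secretion factor (0 of 2) or Dishevelled gene (0 of 3) was called by limma. At an unadjusted p under 0.05 these counts of 0 were the same, except that 1 ligand, WNT10B, was higher. In the authors' deposited table they were the same, except that 1 nuclear factor, BCL9L, fell. Of the tested members, 16 had every knockdown library below every control library, and 4 the reverse, where 20.5% and 25.4% of all tested genes did so. In bulk RNA, less transcript per cell and fewer cells that make it cannot be told apart. The count of members that fell was 6 without shNC replicate 2 and 7 without shHMGA1 replicate 3, against 12 with all libraries, and all tested genes that fell were then 952 and 1055 against 1758. With no minimum on FPKM, 7 members fell, and WNT6, WNT7B, APC, CTNNB1 and TNFRSF19 were no longer called.

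**Figure D1:**
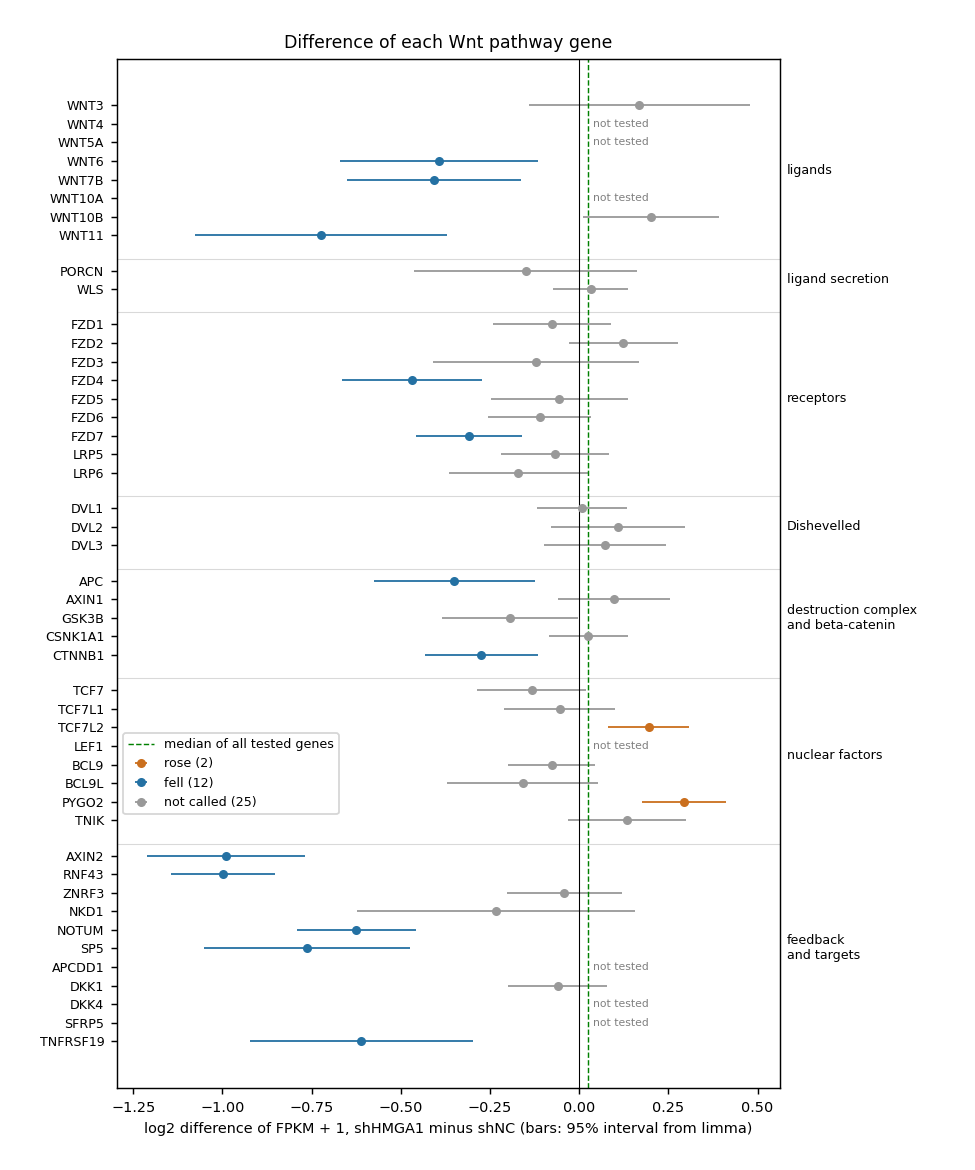
Log2 difference of FPKM + 1 (horizontal axis, shHMGA1 minus shNC) for each member, with 95% intervals from limma (3 libraries per group) and colours for the call. The 12 genes that fell lie between -0.999 and -0.27, the 2 that rose at 0.19 and 0.29, and 7 members under a mean of 1 FPKM have no test.

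Transcripts of the 8 ligands were scarce. Their summed level was 15.67, 15.37 and 15.52 FPKM in the shHMGA1 libraries against 18.34, 19.00 and 19.05 in the shNC libraries. The groups did not overlap, and the knockdown mean was 82.6% of the control mean. This sum leaves out WNT16, a ligand that was not listed, at a mean of 36.4 FPKM in shHMGA1 and 25.4 in shNC. WNT16 alone exceeded the sum and rose, so the lower sum holds for the 8 listed ligands only, not for ligand transcripts in general. WNT11, a ligand known mainly for beta-catenin-independent signalling, had 1.07, 1.75 and 0.94 FPKM in shHMGA1 and 2.62, 2.56 and 2.86 in shNC. It fell (log2 difference -0.72, SE 0.15, adjusted p = 0.0133), and every knockdown library was below every control.

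WNT7B, a ligand that can signal through beta-catenin, was at 4.15, 3.07 and 3.44 FPKM in shHMGA1 against 4.87, 4.89 and 5.28 in shNC (log2 difference -0.41, SE 0.10, adjusted p = 0.0265). WNT6, a ligand of epithelial tissues, was at 2.49, 1.94 and 2.48 FPKM in shHMGA1 against 3.68, 3.46 and 2.87 in shNC (log2 difference -0.39, SE 0.12, adjusted p = 0.0448). Both fell with no overlap between the groups, but neither call was firm. WNT7B was called in 1 of the 6 fits that left out a library, the one without shHMGA1 replicate 1, and had an adjusted p of 0.0614 to 0.0829 in the others. WNT6 was not called without shNC replicate 1 or 2 or shHMGA1 replicate 2 or 3 (adjusted p from 0.0834 to 0.146), nor with quantile normalization (adjusted p = 0.0571), TPM in place of FPKM, or mitochondrially encoded genes left out (adjusted p = 0.0503).

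WNT10B, another ligand of the beta-catenin branch, was higher in every knockdown library, at 4.82, 4.60 and 4.87 FPKM against 3.80, 3.84 and 4.41 in shNC, but was not called (log2 difference 0.20, SE 0.08, adjusted p = 0.104). It took 30.7% ± 0.728 of the summed FPKM of the listed ligands in shHMGA1 and 21.4% ± 1.57 in shNC (SD, n = 3 each). WNT7B, at 22.9% ± 3.31 in shHMGA1 and 26.7% ± 0.995 in shNC, had the largest share in the controls. WNT3 was not called either (2.24 ± 0.347 FPKM in shHMGA1 and 1.88 ± 0.329 in shNC, adjusted p = 0.368). Among the ligands too low to test, WNT4 was at 0.85, 0.61 and 0.75 FPKM in shHMGA1 against 1.29, 1.22 and 1.05 in shNC, without overlap. WNT10A was at 0.667 ± 0.218 and 0.68 ± 0.219 FPKM in shHMGA1 and shNC, and WNT5A did not exceed 0.01 FPKM in any library. WNT6 (chromosome 2, 218859821 to 218874233 in hg38) and WNT10A (218880363 to 218899581) are neighbours with 6129 bases between them, and their levels did not run in parallel.

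Neither gene of the ligand export machinery was called. PORCN, the acyltransferase that attaches the lipid to Wnt proteins, ranged from 5.56 to 8.56 FPKM in shHMGA1 and from 7.36 to 8.06 in shNC (log2 difference -0.15, 95% interval -0.46 to 0.16). WLS, the carrier that brings Wnt proteins to the cell surface, was at 46.3 ± 1.08 FPKM in shHMGA1 and 45.2 ± 0.635 in shNC (log2 difference 0.03, 95% interval -0.07 to 0.14).

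**Figure D2:**
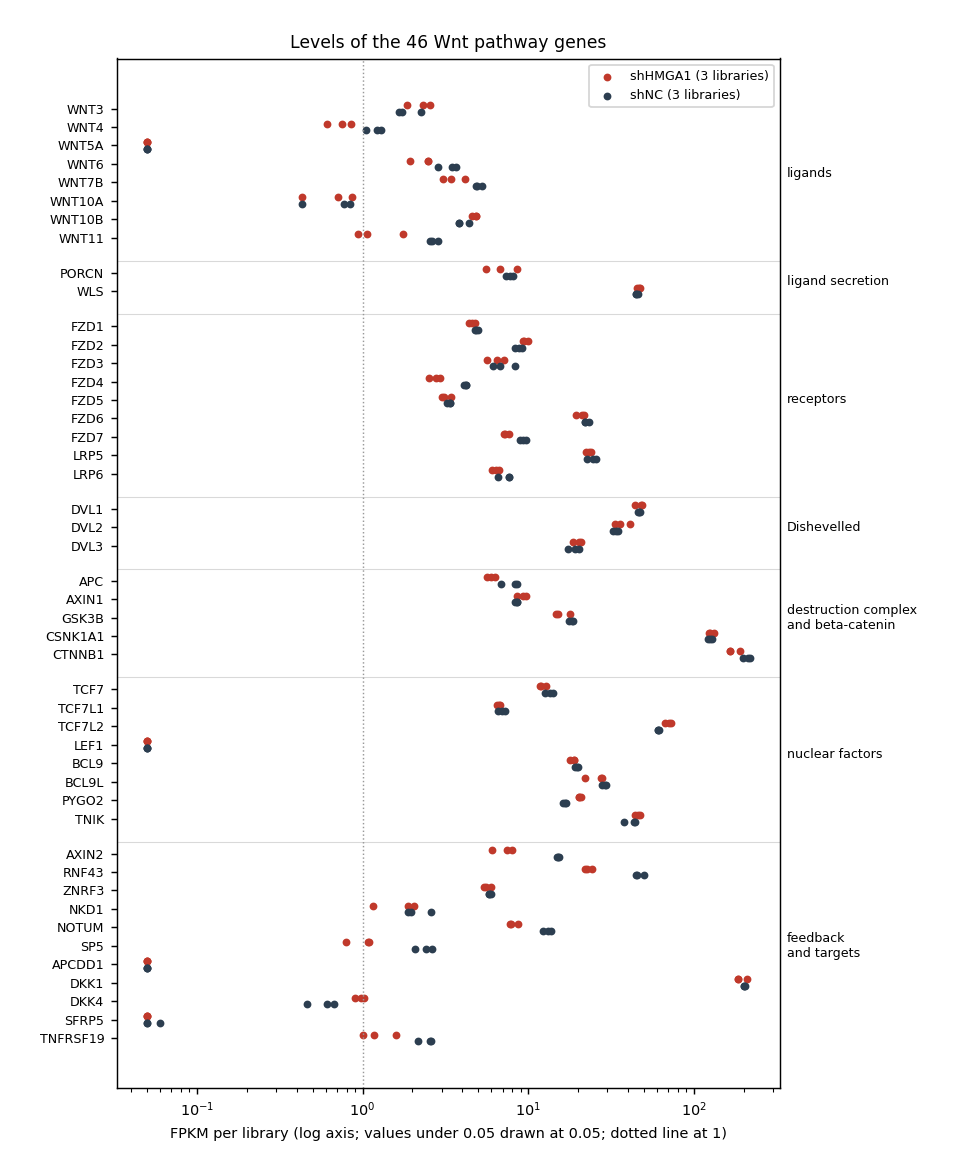
FPKM of all 46 members in each library (log axis, each dot 1 library, shHMGA1 above shNC within a gene). DKK1, CTNNB1 and CSNK1A1 lie above 100 FPKM in every library, the ligands below 6, and WNT5A, LEF1, APCDD1 and SFRP5 near 0.

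Frizzled proteins are the membrane receptors for Wnt ligands, and LRP5 and LRP6 the co-receptors. FZD6 was the most abundant Frizzled transcript, with 38.0% ± 1.34 of the summed FPKM of FZD1 to FZD7 in shHMGA1 and 37.5% ± 0.268 in shNC. The summed level was 54.6 ± 1.57 FPKM in shHMGA1 and 60.0 ± 2.49 in shNC. FZD4, also a receptor for the ligand Norrin, had 2.50, 2.94 and 2.77 FPKM in shHMGA1 against 4.20, 4.08 and 4.22 in shNC and fell (log2 difference -0.47, SE 0.08, adjusted p = 0.00799). FZD7, a receptor used by intestinal stem cells in mouse, had 7.24, 7.14 and 7.67 FPKM in shHMGA1 against 8.97, 9.71 and 9.34 in shNC and fell (log2 difference -0.31, SE 0.06, adjusted p = 0.0131). In both genes the groups were well apart, and only for FZD7 without shNC replicate 2 was the call lost when a library was left out (adjusted p = 0.0555). An exon of FZD4 overlaps PRSS23 on the opposite strand, so reads of the pair may not be separable.

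The other receptors were not called. FZD2 was at 9.32, 9.49 and 10.01 FPKM in shHMGA1 against 8.28, 9.18 and 8.76 in shNC, higher in every knockdown library (adjusted p = 0.194). FZD6 was at 20.75 ± 1.25 FPKM in shHMGA1 and 22.5 ± 0.771 in shNC, and FZD1 at 4.57 ± 0.181 and 4.87 ± 0.112 in the same groups. FZD3 and FZD5 overlapped between the groups. LRP5 was at 23.1 ± 0.945 FPKM in shHMGA1 and 24.3 ± 1.59 in shNC (log2 difference -0.07, 95% interval -0.22 to 0.08). LRP6 was at 6.37 ± 0.305 FPKM in shHMGA1 and 7.31 ± 0.676 in shNC (log2 difference -0.17, 95% interval -0.36 to 0.02).

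Dishevelled proteins relay the signal from the receptors to the destruction complex. DVL1 was at 46.9 ± 2.52 FPKM in shHMGA1 and 46.6 ± 0.55 in shNC, DVL2 at 36.7 ± 3.95 and 33.9 ± 1.2, and DVL3 at 19.9 ± 1.03 and 18.9 ± 1.46, in the same order. The groups overlapped in all 3, and the 95% intervals of their log2 differences lay between -0.12 and 0.30.

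In the layer of the destruction complex and beta-catenin, the scaffold APC and the beta-catenin gene fell, and the kinases and AXIN1 were not called. CTNNB1, the gene for beta-catenin, had 165, 190 and 166 FPKM in shHMGA1 against 199, 218 and 212 in shNC, or 82.7% of the control mean (log2 difference -0.27, SE 0.07, adjusted p = 0.024). APC had 6.34, 5.93 and 5.65 FPKM in shHMGA1 against 8.56, 8.37 and 6.81 in shNC (log2 difference -0.35, SE 0.10, adjusted p = 0.0339). No knockdown library reached the lowest control in either gene. The call of CTNNB1 was lost without shNC replicate 2 or 3 or shHMGA1 replicate 3 (adjusted p from 0.0684 to 0.0859), and that of APC without shNC replicate 1 or 2 or shHMGA1 replicate 2 or 3 (0.0751 to 0.116). The fold change of APC in the authors' deposited table was -0.10 on the log2 scale (adjusted p 0.383). An exon of APC overlaps AC008575.1 on the same strand.

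The scaffold AXIN1 was at 9.15 ± 0.595 FPKM in shHMGA1 and 8.48 ± 0.184 in shNC (log2 difference 0.10, 95% interval -0.06 to 0.26). CSNK1A1, the casein kinase that primes beta-catenin, was at 127 ± 4.6 FPKM in shHMGA1 and 125 ± 3.47 in shNC. GSK3B, the kinase that marks beta-catenin for degradation, was at 17.92, 14.69 and 15.10 FPKM in shHMGA1 against 18.73, 18.50 and 17.61 in shNC. It was not called (log2 difference -0.19, adjusted p = 0.116), but it was without shHMGA1 replicate 1, the knockdown library within the control range (log2 difference -0.28, adjusted p = 0.0143).

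Among the nuclear factors, TCF7L2, the main intestinal DNA-binding partner of beta-catenin, made up most of the TCF/LEF transcripts, with 78.8% ± 0.29 of their summed FPKM in shHMGA1 and 75.0% ± 0.907 in shNC. It had 72.47, 66.59 and 71.17 FPKM in shHMGA1 against 60.95, 61.60 and 60.63 in shNC and rose (log2 difference 0.19, SE 0.05, adjusted p = 0.0245). The groups did not overlap, yet this small rise was called in only 2 of the 6 fits that left out a library, those without shHMGA1 replicate 1 or 2. Without the other libraries, shNC replicates 1, 2 and 3 and shHMGA1 replicate 3, its adjusted p was 0.0667 to 0.0848, with quantile normalization 0.0809, and with mitochondrially encoded genes left out 0.0564.

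PYGO2, which reads methylated histone H3 and joins the beta-catenin complex through BCL9 proteins, had 20.95, 20.28 and 20.36 FPKM in shHMGA1 against 16.13, 16.77 and 16.84 in shNC. It rose (log2 difference 0.29, SE 0.05, adjusted p = 0.00704) and was called whichever library was left out. Its exons overlap SHC1 on the same strand and AL451085.2 on the other. TCF7 (12.2 ± 0.545 FPKM in shHMGA1 and 13.4 ± 0.733 in shNC) and TCF7L1 (6.65 ± 0.157 and 6.95 ± 0.341), the other 2 detected family members, were not called. LEF1, a TCF relative, was listed at 0 in every library except shHMGA1 replicate 2, at 0.03 FPKM. The adaptors BCL9 and BCL9L were lower in every knockdown library without being called (adjusted p = 0.301 and 0.227). BCL9L stood at 27.48, 27.91 and 22.15 FPKM in shHMGA1 against 28.03, 29.11 and 29.29 in shNC, with shHMGA1 replicate 3 the lowest. The TCF7L2-binding kinase TNIK was at 46.02 ± 1.74 FPKM in shHMGA1 and 41.9 ± 3.47 in shNC (adjusted p = 0.192), with overlap.

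Of the feedback genes and targets, 5 fell. RNF43, a membrane ubiquitin ligase that removes Frizzled receptors, had 22.65, 21.91 and 24.11 FPKM in shHMGA1 against 49.75, 44.86 and 45.65 in shNC, or 49.0% of the control mean. AXIN2, the inducible Axin of the destruction complex, had 7.99, 7.40 and 6.06 FPKM in shHMGA1 against 14.83, 15.39 and 15.07 in shNC, or 47.4%. Both fell by close to 1 on the log2 scale, RNF43 with a log2 difference of -0.999 (SE 0.06, adjusted p = 0.000316) and AXIN2 with -0.99 (SE 0.09, adjusted p = 0.00121). The spread within each group was small against the gap.

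NOTUM, a secreted enzyme that strips the lipid from Wnt ligands, had 8.70, 7.91 and 7.76 FPKM in shHMGA1 against 12.30, 13.14 and 13.75 in shNC (log2 difference -0.62, SE 0.07, adjusted p = 0.00183). SP5, a zinc finger factor induced by beta-catenin, had 0.79, 1.08 and 1.10 FPKM in shHMGA1 against 2.61, 2.08 and 2.43 in shNC (log2 difference -0.76, SE 0.12, adjusted p = 0.00571). In both, no knockdown library came near a control. TNFRSF19 (also TROY), a receptor of the TNF family that marks intestinal stem cells in mouse, had 1.60, 1.00 and 1.17 FPKM in shHMGA1 against 2.59, 2.54 and 2.16 in shNC (log2 difference -0.61, SE 0.13, adjusted p = 0.0157). It fell too, but was not called without shNC replicate 1 or 2 or shHMGA1 replicate 3 (adjusted p from 0.0552 to 0.0622).

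These log2 differences are of FPKM + 1, which understates the change of low genes. SP5 was at 41.7% of the control mean and TNFRSF19 at 51.7%. With a pseudocount of 0.1 in place of 1, SP5 had a log2 difference of -1.19, WNT11 of -1.08, TNFRSF19 of -0.92 and FZD4 of -0.59. With 5 the same genes had -0.30, -0.30, -0.25 and -0.25, and all 4 were called at either value. SP5 passed the minimum of 1 FPKM through its control libraries, since its mean in shHMGA1 was 0.99 ± 0.173.

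**Figure D3:**
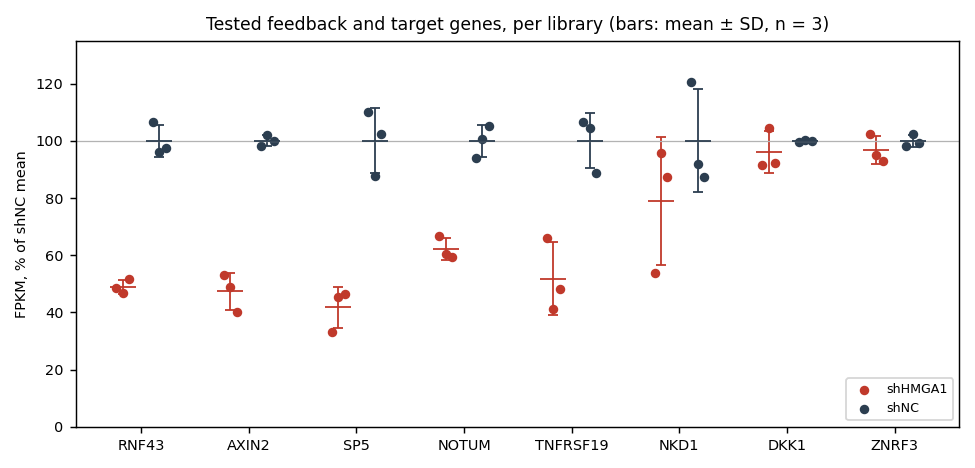
FPKM of the 8 tested feedback and target genes as a percentage of the shNC mean (vertical axis), each dot 1 library, bars mean ± SD (n = 3). RNF43, AXIN2, SP5, NOTUM and TNFRSF19 lie below every control library in shHMGA1, while NKD1, DKK1 and ZNRF3 overlap.

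The other 3 tested feedback genes were not called. ZNRF3, a ubiquitin ligase closely related to RNF43, was at 5.99, 5.56 and 5.44 FPKM in shHMGA1 against 5.76, 5.99 and 5.82 in shNC (log2 difference -0.04, 95% interval -0.20 to 0.12). DKK1, a secreted blocker of LRP5 and LRP6, was the most abundant transcript of the layer, at 184, 210 and 186 FPKM in shHMGA1 against 201, 202 and 201 in shNC (log2 difference -0.06, 95% interval -0.20 to 0.08). The groups overlapped in both.

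NKD1, an inhibitor that binds Dishevelled, was spread more widely, at 1.15, 2.05 and 1.87 FPKM in shHMGA1 against 2.58, 1.97 and 1.87 in shNC (log2 difference -0.23, 95% interval -0.62 to 0.16, adjusted p = 0.326). NKD1 had a fold change of -0.61 on the log2 scale in the authors' deposited table (adjusted p 4.64e-06). DKK4, a further Dickkopf blocker under the minimum for a test, was at 1.02, 0.98 and 0.90 FPKM in shHMGA1 against 0.61, 0.46 and 0.67 in shNC, the reverse of the genes that fell. In a fit with no minimum it was not called (adjusted p = 0.0859). APCDD1, a membrane-bound inhibitor, and SFRP5, a secreted ligand trap, were at no more than 0.02 FPKM in any shHMGA1 library and 0.06 in any shNC library.

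Setting related genes of 1 library against each other removes any factor that scales a whole library. The ratio of AXIN2 to AXIN1 was 0.938, 0.763 and 0.656 in shHMGA1 against 1.73, 1.86 and 1.75 in shNC, so AXIN2 was the more abundant Axin in the controls and AXIN1 in the knockdown. For RNF43 over ZNRF3 the ratio was 3.78, 3.94 and 4.43 in shHMGA1 against 8.64, 7.49 and 7.84 in shNC. These 2 pairs were chosen after their values were seen, each from a gene that fell and a relative that was not called, so the gap between the groups is a description and was not tested.

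**Figure D4:**
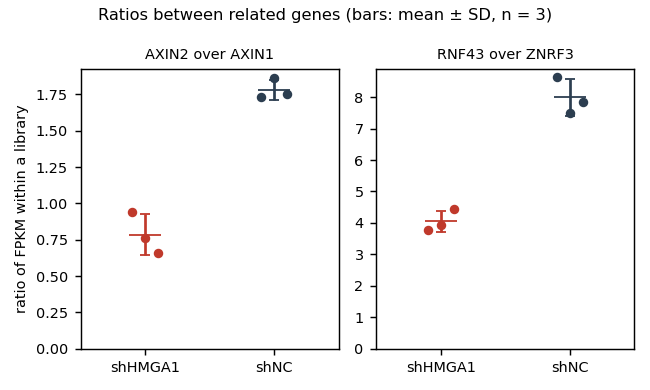
Ratio of FPKM within a library (vertical axis, from 0) for AXIN2 over AXIN1 and RNF43 over ZNRF3, each dot 1 library, bars mean ± SD (n = 3). Mean ratios were 0.786 in shHMGA1 and 1.78 in shNC for the Axins, and 4.05 and 7.99 for the ubiquitin ligases.

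RNF43 (58352500 to 58417595), AXIN2 (65528563 to 65561647) and NOTUM (81952507 to 81961840) all lie on the minus strand of chromosome 17 in hg38. The other 3 members on that chromosome, WNT3, FZD2 and DVL2, were not called, and of its 889 tested genes 11.4% fell. Exons of RNF43 overlap SUPT4H1 and AC004687.2 on the same strand and TSPOAP1-AS1 on the other, and those of AXIN2 overlap AC004805.1, so some reads could belong to either gene. SP5 (170715351 to 170718078 on chromosome 2) and NOTUM have no exon overlap in GENCODE 29.

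TCF/LEF factors bind sites with the core CTTTGAA or CTTTGAT, so promoters (250 bases before to 50 after a start, from RefSeq on GRCh38.p14) were searched for these letters on both strands. The 2 motifs differ only in their last base and cannot start at the same position. Promoters of 32 of the 46 members were matched, and AXIN2 and NOTUM are among the 14 that were not. Those matched have 43 promoters in the set. Of them, 2 members, SP5 and DKK1, held a match, each in its only listed promoter, where 6.86% of all 35116 promoters did. Matches were thus not more frequent among the members' promoters, and SP5 was singled out after the search. SP5, which fell, held 3 matches, 148, 109 and 84 bases before the start, where 0.0256% of all promoters held as many. DKK1, which was not called, held 1, at 95 bases before its start. RNF43, which fell, held none in this window at its outermost start. A match is only a string of letters, and binding was not measured. The windows are printed 5′ to 3′ on the gene's own strand to show a feedback gene with several matches, 1 that was not called with a match, and 1 that fell with none. Capitals mark the matches, and TTCAAAG is CTTTGAA read on the opposite strand. SP5 lies at chr2:170715087-170715386 (plus strand), DKK1 at chr10:52314031-52314330 (plus strand) and RNF43 at chr17:58417485-58417784 (minus strand).
SP5: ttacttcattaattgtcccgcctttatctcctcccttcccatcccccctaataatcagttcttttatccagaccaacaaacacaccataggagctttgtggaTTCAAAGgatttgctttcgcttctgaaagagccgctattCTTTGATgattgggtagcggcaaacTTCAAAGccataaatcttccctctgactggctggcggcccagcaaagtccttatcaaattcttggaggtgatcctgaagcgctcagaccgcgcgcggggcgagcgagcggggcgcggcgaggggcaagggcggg
DKK1: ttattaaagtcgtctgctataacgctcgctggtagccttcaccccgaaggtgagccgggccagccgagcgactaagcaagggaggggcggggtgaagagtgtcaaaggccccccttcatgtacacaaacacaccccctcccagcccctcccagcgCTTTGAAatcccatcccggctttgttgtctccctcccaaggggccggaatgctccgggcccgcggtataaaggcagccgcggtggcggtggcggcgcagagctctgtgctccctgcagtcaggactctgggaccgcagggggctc
RNF43: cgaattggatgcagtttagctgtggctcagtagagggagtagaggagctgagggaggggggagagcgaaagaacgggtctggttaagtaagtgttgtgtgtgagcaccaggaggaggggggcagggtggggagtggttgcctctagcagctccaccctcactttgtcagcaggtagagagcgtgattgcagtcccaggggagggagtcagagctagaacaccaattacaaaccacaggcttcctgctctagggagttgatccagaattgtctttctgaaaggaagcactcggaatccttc

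The authors' own comparison, made from the same libraries (its tool not given in the sources used here), was set beside the FPKM fit. Of the 42 members with an adjusted p in the authors' deposited table, 15 fell and 3 rose at a value under 0.05. Of all 16509 genes with an adjusted p there, 16.7% fell and 17.5% rose. The 2 sources shared 11 members that fell and 2 that rose. APC fell in the FPKM fit alone, while NKD1, LRP6, GSK3B and BCL9L fell, and TNIK rose, in the authors' deposited table alone. The signs differed in 8 of 39 tested members, none of them called in the FPKM fit. The same table's group levels, on what appears to be a scale of normalized counts, were low for the scarcest called genes. In the authors' deposited table WNT11 was at 37.9 in shHMGA1 and 83.0 in shNC, and SP5 at 48.1 and 121, whereas RNF43 was at 2991 and 5589 and CTNNB1 at 11425 and 13336.

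**Figure D5:**
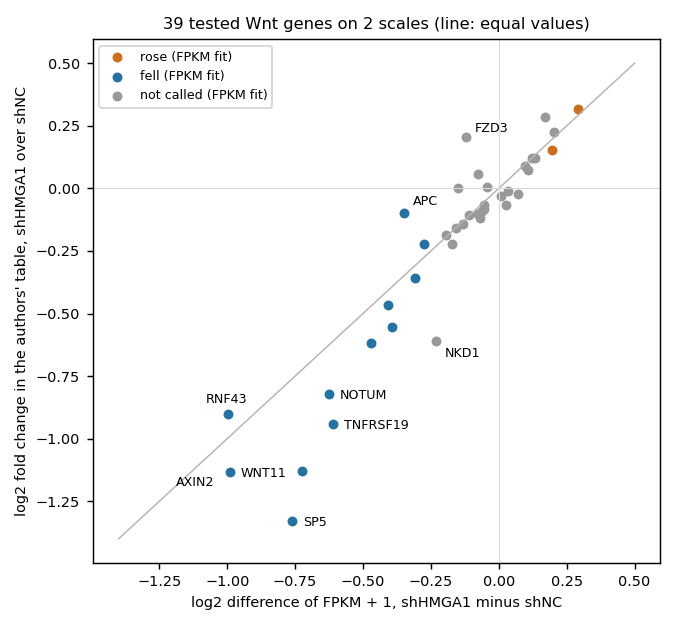
Log2 fold change in the authors' deposited table (vertical axis) against the log2 difference of FPKM + 1 (horizontal axis), both shHMGA1 relative to shNC, for the 39 tested members, coloured by the call on FPKM. SP5, WNT11 and TNFRSF19 lie below the line of equal values, RNF43 above it, and NKD1 at -0.23 on FPKM and -0.61 in the authors' table.

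A wider list of 80 Wnt genes that are not among the 46 was read in the same fit. It too was chosen with earlier results of these data known, and 76 of its genes were in the table. Of 46 that were tested, 13 fell (28.3%) and 7 rose (15.2%), with a median log2 difference of -0.02, where 12.3% of all tested genes fell and 16.1% rose. Of 10 tested other intestinal Wnt targets, 6 fell, 1 rose and 3 were not called. TBX3 rose (8.02 ± 0.953 FPKM in shHMGA1 and 6.30 ± 0.183 in shNC, adjusted p = 0.0448). MYC, EPHB2 and EPHB3 were not called, at 110%, 99.0% and 69.8% of the control mean. EPHB3 was lower in every knockdown library (log2 difference -0.47, limma adjusted p = 0.063). In the authors' deposited table EPHB3 fell (adjusted p 0.00276), MYC rose (adjusted p 0.0174) and EPHB2 did neither. The 3 called targets with the largest differences fell. BMP4, a secreted factor of the TGF-beta superfamily, had 85.26, 96.45 and 88.80 FPKM in shHMGA1 against 205, 206 and 210 in shNC (log2 difference -1.19, adjusted p = 0.000157). The crypt transcription factor SOX9 was at 29.3 ± 3.15 FPKM in shHMGA1 and 45.0 ± 0.574 in shNC (log2 difference -0.61, adjusted p = 0.00291). CD44, a hyaluronan receptor, was at 328 ± 18.4 FPKM in shHMGA1 and 449 ± 11.2 in shNC (log2 difference -0.45, adjusted p = 0.00197). BMP4, SOX9 and CD44 fell in every fit that left out a library.

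R-spondins are secreted proteins that shield Frizzled receptors from RNF43 and ZNRF3. Of their receptors, LGR4 fell, at 3.13, 2.32 and 2.71 FPKM in shHMGA1 against 4.34, 4.05 and 4.08 in shNC (log2 difference -0.48, adjusted p = 0.0153). Its call was lost without shNC replicate 1 or shHMGA1 replicate 3 (adjusted p of up to 0.0618). LGR5, the classical crypt stem cell marker, did not exceed 0.01 FPKM in shHMGA1 or 0.03 in shNC. WNT16, the most abundant ligand of either list and outside the 46, had 32.21, 38.96 and 37.97 FPKM in shHMGA1 against 25.25, 26.52 and 24.41 in shNC and rose (log2 difference 0.50, adjusted p = 0.00566). Its level exceeded the summed FPKM of all 8 listed ligands in every library. The mean of WNT16 rose by more FPKM than that sum fell, so with WNT16 added the sum was higher in shHMGA1. WNT3A, the classical beta-catenin-branch ligand, was at 1.11 ± 0.193 FPKM in shHMGA1 and 2.07 ± 0.0971 in shNC and fell (adjusted p = 0.0148), a call lost without shNC replicate 1 or 2 (adjusted p of up to 0.0584).

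Of 8 tested cofactors and repressors 3 fell and 1 rose, where 12.3% of all tested genes fell and 16.1% rose. The 3 that fell were Groucho-type corepressors, which occupy TCF factors in the absence of beta-catenin. The 1 that rose, CTBP1, was at 107 ± 5.05 FPKM in shHMGA1 and 94.4 ± 3.37 in shNC (adjusted p = 0.0416). TLE5 was not called (log2 difference -0.11, adjusted p = 0.15). TLE1 was at 14.1 ± 1.9 FPKM in shHMGA1 and 20.9 ± 0.835 in shNC (log2 difference -0.55, adjusted p = 0.00758) and was called whichever library was left out. TLE2 (log2 difference -0.28, adjusted p = 0.03) and TLE3 (-0.25, adjusted p = 0.0206) were called in 2 and 3 of those 6 fits. TLE2 lost its call without shNC replicate 2 or 3 or shHMGA1 replicate 1 or 3 (adjusted p of up to 0.099) and TLE3 without shNC replicate 1 or 2 or shHMGA1 replicate 2 (adjusted p of up to 0.0814). KREMEN1, a membrane receptor for DKK1, fell as the 1 called gene among 3 tested inhibitors (20.6 ± 2.64 FPKM in shHMGA1 and 27.45 ± 0.691 in shNC, adjusted p = 0.0164). It was not called without shNC replicate 1 or 2 (adjusted p of up to 0.0609).

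In the rest of the destruction and turnover machinery, 3 of 10 genes rose and 1 fell, where 16.1% of all tested genes rose and 12.3% fell. SIAH1, a ubiquitin ligase that can act on beta-catenin, was at 17.6 ± 0.878 FPKM in shHMGA1 and 12.9 ± 0.492 in shNC (log2 difference 0.42, adjusted p = 0.00399). GSK3A, the relative of GSK3B, was at 45.3 ± 0.99 FPKM in shHMGA1 and 37.6 ± 1.65 in shNC (log2 difference 0.26, adjusted p = 0.0109), and both held with any library left out. FBXW11, an F-box protein that recognises marked beta-catenin, fell (log2 difference -0.28, adjusted p = 0.0335), but not without shNC replicate 1 or 2 or shHMGA1 replicate 2 or 3 (adjusted p of up to 0.11). In the planar polarity branch, 1 of 7 tested genes was called, where 28.4% of all tested genes were called in either direction. It was the scaffold SCRIB, which rose (118 ± 5.88 FPKM in shHMGA1 and 100.1 ± 2.62 in shNC, log2 difference 0.23, adjusted p = 0.0162). That call was lost with shNC replicate 2 left out (adjusted p = 0.0664). None of the 4 other tested receptors was called.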

How the data were processed

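Poly-A RNA libraries (3 shHMGA1, 3 shNC, grouped by sample title) were made with a Vazyme kit and sequenced on an MGI instrument, per the labels' protocols. FPKM per library, with 2 decimals, were computed and deposited by the authors, per the file headers. Beside them stand, per the file headers, a mean signal per group (apparently on a scale of normalized counts), a log2 fold change, a p-value and an adjusted p, all as the authors deposited them. Per the submitters' processing notes, hg38 was used. Aligner, counting tool, strand setting, annotation and test: not given in the sources used here. FPKM keep no depth, so no counting interval is given.

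For the 14304 genes whose mean reached 1 FPKM, log2(FPKM + 1) values entered a linear model in limma 3.58.1 (R 4.3.3; eBayes with trend, two-sided, Benjamini-Hochberg over all genes). On simulated data (14159 genes, 200 changed, all at 5 FPKM or more) the fit recovered 96% at a log2 change of 1 and 66% at 0.5, with 15 false calls. Genes there were drawn independently, and a smaller share changed than the 28.4% called here. Recovery of members under 5 FPKM was not measured. All 46 members are accounted for in the text. Of the wider lists, up to 3 called genes per list with the largest absolute difference were named. LGR5, TBX3, MYC, EPHB2, EPHB3, CTBP1 and TLE5 were named after their values were seen. Members and lists were chosen with earlier results of these data known. Alternatives were pseudocounts 0.1 and 5, no minimum, a minimum of 5, quantile and median-of-ratios scaling, TPM, leaving out mitochondrially encoded genes, no trend, a block for the replicate number, and leaving out each library. Names were matched by symbol, 1 gene (TLE5) by its ID. Coordinates and exon overlaps (17 of 46 members have one) are from GENCODE 29. Tables were made with Python 3.11.15.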

Additional observations from a re-analysis of the deposited data

How the results depend on the processing

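Of the 14 members called, 7 (WNT11, FZD4, PYGO2, AXIN2, RNF43, NOTUM and SP5) were called under every alternative that tested them, and all 14 kept their direction. Of 613 comparisons of a member with an alternative, 566 kept both direction and side of the threshold, 36 lost the call, 1 gained it and 10 changed sign. The sign changes were in 3 genes that were not called. They were WLS (-0.034) and CSNK1A1 (-0.023) with quantile normalization, CSNK1A1 without mitochondrially encoded genes (-0.000623) and with a library left out (-0.0044 to 0.044), and DVL1 with quantile normalization (-0.054), median-of-ratios scaling (-0.00408) and without mitochondrially encoded genes (-0.017), and from -0.021 to 0.052 with a library left out. HMGA1 was called under all alternatives (-0.75 to -0.61 with a library left out).

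The 12 members that fell were 7 with no minimum on FPKM and 6 with a minimum of 5, which leaves several of them untested, and 6 to 13 with a library left out. The 2 that rose were 1 with quantile normalization, without mitochondrially encoded genes and with the replicate block, and 1 to 2 with a library left out. Of the feedback genes, 5 fell, 3 with a minimum of 5 FPKM (SP5 and TNFRSF19 were then untested) and 4 to 5 with a library left out, while 0 rose in all these fits. Among all tested genes, 1758 fell and 2307 rose. With no minimum 1478 rose, and with a library left out 952 to 1973 fell and 1138 to 2626 rose.

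Deviations of same-numbered libraries from their group means had correlations of 0.02, -0.04 and 0.04 for numbers 1, 2 and 3. With 3 libraries per group these values cannot show whether same numbers mean a shared culture or batch. With the replicate block 11 members fell and 1 rose, WNT6 (adjusted p 0.0729) and TCF7L2 (0.0537) lost their calls, as did TLE2 (0.0544), TLE3 (0.054) and FBXW11 (0.0604) of the wider list, 5 feedback genes fell, and 1495 genes fell and 1913 rose in all. Only shHMGA1 replicate 3 correlated best with the control of its own number. With no minimum on FPKM, TLE2 (adjusted p 0.0696), FBXW11 (0.0819) and LGR4 (0.0528) were not called. FPKM do not record depth, so its effect on the lowest genes was not tested.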
